A study of Bos taurus with 72 samples.

Results

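Milk protein genes were read across the 12 treatment media of this experiment: the 4 caseins CSN1S1 (αs1-casein, ENSBTAG00000007695), CSN2 (β-casein, ENSBTAG00000002632), CSN1S2 (αs2-casein, ENSBTAG00000005005) and CSN3 (κ-casein, ENSBTAG00000039787), and the whey proteins LALBA (α-lactalbumin, ENSBTAG00000005859) and PAEP (β-lactoglobulin, ENSBTAG00000014678). They were taken by name and identifier, and all 6 are among the 29550 genes of the deposited table. Primary bovine mammary epithelial cells (BMECs) had been grown out of mammary tissue of healthy dairy cows, separated from fibroblasts by their sensitivity to trypsin and used after 6 passages. RNA was collected after 6 h of treatment from 6 replicates of each medium, which gave 72 libraries. POS was complete DMEM-F12 medium, and NEG was the same medium lacking every essential amino acid (EAA). Arg, His, Ile, Leu, Lys, Met, Phe, Thr, Trp and Val were NEG with the amino acid of that name added back at its concentration in POS. Cells of all 12 media were labelled wild type and had been starved of serum overnight. The sample labels list prolactin at 5 μg/mL, insulin at 5 μg/mL and hydrocortisone at 1 μg/mL in the growth medium, beside serum, transferrin and epidermal growth factor, whereas the methods of the paper name serum and insulin but neither prolactin nor hydrocortisone. Neither source says whether the hormones were present during the treatment, or how many cows the replicates came from. The p-values below therefore judge differences against the spread between these libraries, and do not extend to other cows.

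Caseins are the main proteins of cow's milk. The αs1-, β- and αs2-caseins bind calcium phosphate and fill the casein micelle, while κ-casein coats its surface and keeps micelles apart. α-Lactalbumin is the regulatory subunit of lactose synthase, and β-lactoglobulin is the most abundant whey protein of ruminants. Transcription of these genes in the mammary gland is driven by prolactin acting through STAT5, together with glucocorticoids and insulin, and it tends to be lost when epithelial cells are grown on plastic. The 4 casein genes are neighbours on the same chromosome in the RefSeq annotation of the ARS-UCD2.0 assembly, in the order CSN1S1, CSN2, CSN1S2 and CSN3, with HSTN and STATH between CSN2 and CSN1S2, and with PRR27 and ODAM between CSN1S2 and CSN3. No source used here names the genome build behind the deposited table, so no coordinates are given.

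Of the 6 milk protein genes, κ-casein was the only one with reads in most libraries. FPKM are reads per kilobase of gene and per a factor for the library, and whole numbers of reads on each gene could be recovered from them, between 12006111 and 18602430 in all per library (median 15865515). CSN1S1, CSN2, CSN1S2 and PAEP were listed at 0 in all 72 libraries, so none of the 4 was detected in any of the 12 media. A count of 0 allows up to 3 reads, which is 0.161 to 0.250 reads per 1000000 (RPM) in single libraries and 0.00262 RPM over the 1143482264 reads of all libraries together. These limits cover counting error only, because PCR copies were not marked. A 0 in every library was not rare in the table, since it held for 5867 of the 29550 genes (19.9%). The αs1-, β- and αs2-caseins were thus below detection at this depth in POS as well as in NEG, and no difference between media could be measured for them.

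**Figure D1:**
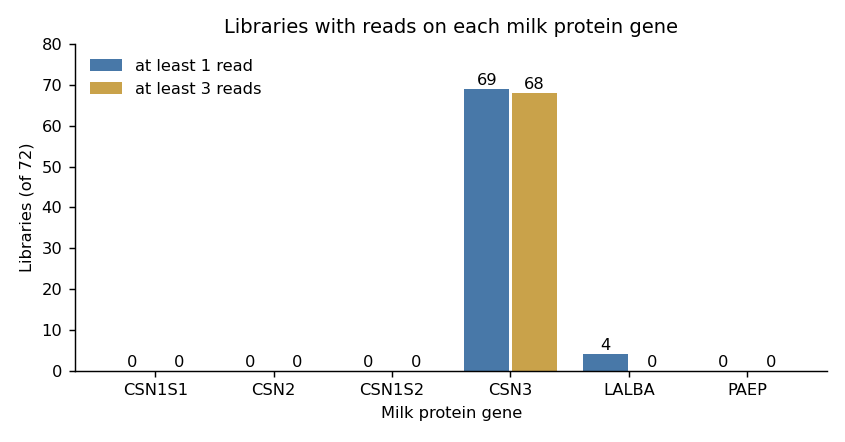
Number of libraries, of 72, in which each of the 6 milk protein genes (x axis) had at least 1 recovered read (blue bars) or at least 3 (yellow bars). CSN3 had reads in 69 libraries and LALBA in 4, and CSN1S1, CSN2, CSN1S2 and PAEP had none.

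LALBA stood at the edge of detection. It was above 0 in 4 libraries: NEG_3 with 2 reads (0.056 FPKM), Trp_4 with 2 reads (0.052 FPKM), His_6 with 1 read (0.025 FPKM) and Met_6 with 1 read (0.027 FPKM). The other 68 libraries, all 6 of POS among them, held none. No library reached 3 reads, and 2794 genes of the table (9.46%) were likewise above 0 in 1 to 4 libraries. The 6 reads in all came to 0.00525 RPM, a level at which the 12 media cannot be told apart. LALBA, like the 4 genes at 0, did not pass the filter for the tests across genes, which asked for an FPKM above 0 in at least 6 libraries. CSN3 was the only member that passed.

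CSN3 was expressed at a low level. It had 1310 reads in all libraries together and was above 0 in 69 of 72, with at least 3 reads in 68. Its mean over the 72 libraries was 1.32 FPKM, close to the median of 1.15 FPKM for the mean level of the 23683 genes above 0 in at least 1 library, of which 51.1% had a lower mean than CSN3. In FPKM of CSN3, 1 read was worth 0.064 to 0.10, so each of its values rests on 61 reads or fewer.

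In the medium without EAA, κ-casein mRNA was present in every library. NEG ranged from 0.829 to 3.03 FPKM with a median of 1.68, which is 11 to 45 reads, and its mean was 1.86 ± 0.786 (SD, n = 6). In the complete medium the level was lower. POS ranged from 0 to 0.685 FPKM with a median of 0.370, which is 0 to 10 reads, and its mean was 0.360 ± 0.282 (SD, n = 6). The highest POS library, POS_1, lay below the lowest NEG library, NEG_3, so the ranges did not overlap. The mean of POS was 0.194 times that of NEG. With RNA from whole cultures, fewer cells with κ-casein mRNA and less of it per cell cannot be told apart.

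Among the single-EAA media, His held the highest values. It ranged from 0.492 to 4.71 FPKM with a median of 2.12, and its mean of 2.23 ± 1.47 (SD, n = 6) was the highest of the 12 media. Ile followed closely behind NEG, from 0.799 to 3.09 FPKM with a median of 1.60 and a mean of 1.77 ± 0.827. Both media overlapped NEG across most of its range. Met ranged from 0.787 to 2.24 FPKM with a median of 1.14, and its mean was 1.30 ± 0.509. Trp lay between 0.424 and 1.83 FPKM (median 1.37, mean 1.26 ± 0.489), and Lys between 0.543 and 2.06 FPKM (median 1.19, mean 1.24 ± 0.487). These 3 media had the least variable levels of CSN3 together with Phe, with coefficients of variation of 38.7% to 40.6%. Thr was far more variable, from 0.344 to 2.86 FPKM (median 0.969, mean 1.23 ± 0.912), with a coefficient of variation of 74.0%. Val reached from 0.450 to 2.08 FPKM (median 1.22, mean 1.22 ± 0.632), and Phe from 0.531 to 1.84 FPKM (median 1.16, mean 1.18 ± 0.478). These 6 media overlapped NEG and each other. Leu ranged from 0 to 1.89 FPKM (median 1.22, mean 1.18 ± 0.712), and Arg from 0 to 1.91 FPKM (median 1.15, mean 1.03 ± 0.621). The lowest value in each of these 2 media came from a single library without a CSN3 read, Leu_1 and Arg_4, and their other 5 libraries began at 0.837 and 0.791 FPKM.

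**Figure D2:**
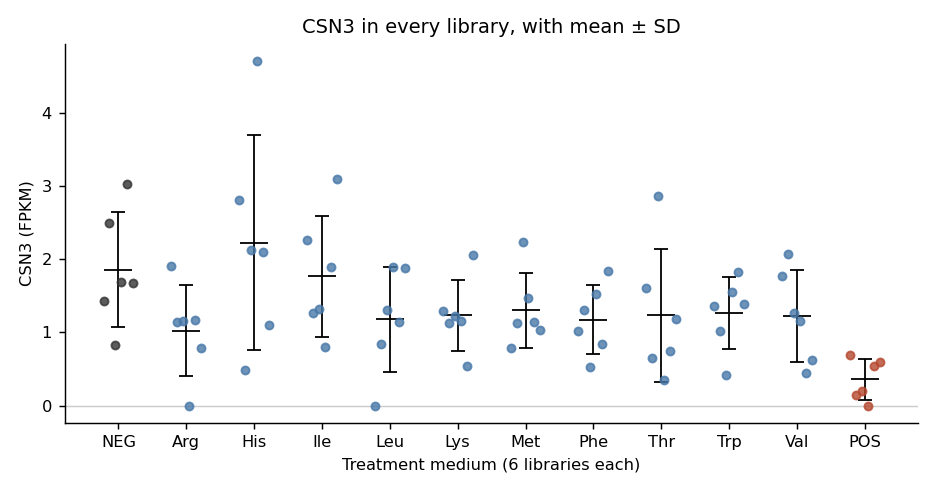
CSN3 in FPKM (y axis) in each library of the 12 media (x axis), with points for libraries and bars for the mean ± SD of 6. The 6 POS libraries lie at 0.685 FPKM or less, below all 6 NEG libraries, and the single-EAA media overlap NEG.

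Whether the media differed in κ-casein mRNA at all was asked with the moderated F test of limma on log2(FPKM + 1) over all 72 libraries. CSN3 differed between the 12 media (F = 2.66, adjusted p = 0.014, Benjamini-Hochberg over the 20576 genes tested). The same test called 59.9% of all genes, so a difference between media was the common case and CSN3 was not unusual in it. With POS left out, a choice made after the levels were seen, the 11 other media did not pass the test (F = 1.14, adjusted p = 0.43 by limma), while 56.2% of all genes did.

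Each medium was then compared with NEG by limma on the 12 libraries concerned, and CSN3 was called in 1 of the 11 comparisons. POS was lower than NEG by a log2 fold change of −1.05 on the log2(FPKM + 1) scale (95% interval −1.48 to −0.62, standard error 0.20, adjusted p = 0.0035 by limma). Among all genes tested in that comparison, 19.9% were called, 11.5% as lower in POS, and 8.33% had a POS range wholly below the NEG range. The scale understates the change of a gene at this level. The log2 fold change was −2.30 with a pseudocount of 0.1 (adjusted p = 0.010 by limma) and −2.67 by voom on the recovered reads (95% interval −3.96 to −1.37, adjusted p = 0.0078 by limma). Both values include POS_4, which held no CSN3 read, and neither was fitted without it. On log2(FPKM + 1) the change was −0.97 without POS_4 (adjusted p = 0.0047 by limma). A two-sided exact permutation test of the mean FPKM gave p = 0.0022, the smallest p that 6 libraries against 6 can give, and 0.024 when adjusted by Benjamini-Hochberg over the 11 comparisons of CSN3, a rule by which 15.1% of all genes were lower in POS. Without the 3 libraries that held no CSN3 read (Leu_1, Arg_4 and POS_4), an alternative added after the data were seen, this exact permutation test gave p = 0.0043 and an adjusted p of 0.048. With NEG_2 left out as well the exact p was 0.0079, the smallest that 5 libraries against 5 can give, and an adjusted p of 0.087, so the call was lost at that number of libraries. NEG_2 was set aside for its place in earlier results of these data on other genes, and its CSN3 level (2.49 FPKM) lay within the range of the other 5 NEG libraries.

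None of the 10 single amino acids changed CSN3 past the threshold, and 9 of the 10 point estimates lay below NEG. These 9 are not separate pieces of evidence, because all of them rest on the same 6 NEG libraries. Arg gave −0.52 (95% interval −1.08 to 0.05, adjusted p = 0.27 by limma, exact permutation p = 0.069), with 2.41% of all genes called in that comparison, and −0.33 without Arg_4 (adjusted p = 0.35 by limma). Leu gave −0.43 (interval −1.03 to 0.18, 29.8% of genes called), and −0.22 without Leu_1 (adjusted p = 0.45 by limma). Arg_4 and Leu_1 held no read of CSN3. The log2 fold change was for Thr −0.40 (interval −0.97 to 0.17, 0.0535% called), for Phe −0.38 (interval −0.81 to 0.06, 2.56% called) and for Val −0.37 (interval −0.86 to 0.13, 38.2% called). For Lys it was −0.34 (interval −0.78 to 0.10, 20.9% of genes called), for Trp −0.32 (interval −0.78 to 0.13, 22.9% called) and for Met −0.29 (interval −0.72 to 0.13, 27.3% called). Single libraries moved Trp to −0.20 without Trp_3 and −0.21 without NEG_5, and Met to −0.19 without NEG_5. Ile was nearest to NEG at −0.05 (interval −0.55 to 0.45, 22.7% called), and His lay above it at 0.09 (interval −0.58 to 0.76, 34.0% called), and the signs of both changed with single libraries left out. Each of the 10 intervals held 0. With all libraries their lower ends were between −0.55 (Ile) and −1.08 (Arg) on log2(FPKM + 1), so these data do not show that any single amino acid left CSN3 as it was in NEG. Other scales gave larger point estimates. With a pseudocount of 0.1, Arg was −1.12 and Leu −0.97 (adjusted p = 0.36 and 0.32 by limma). By voom they were −1.25 and −1.09 (adjusted p = 0.33 and 0.30 by limma). These values include Arg_4 and Leu_1. His stayed above NEG, at 0.07 and 0.04. The 10 exact permutation tests gave adjusted p between 0.24 and 0.86.

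**Figure D3:**
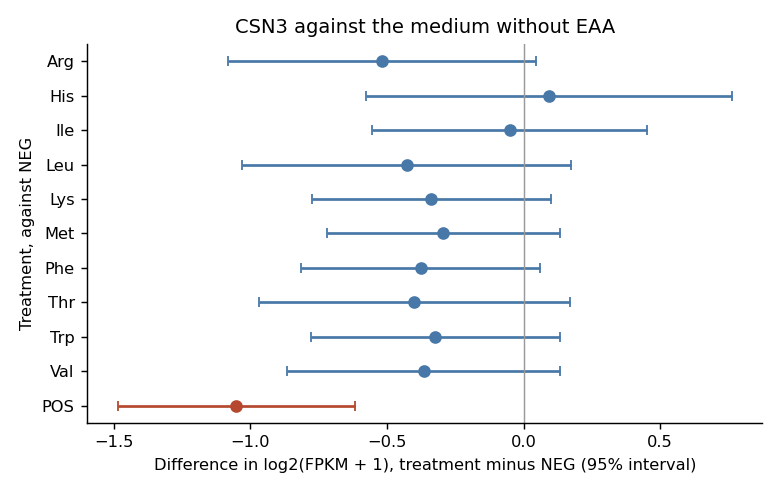
Difference of CSN3 from NEG in log2(FPKM + 1) (x axis, with 95% intervals by limma) for each medium (y axis), 6 libraries against 6. The interval of POS (−1.48 to −0.62) lies below 0, and the intervals of the 10 single-EAA media hold 0.

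Ordered by mean FPKM, the media ran His, NEG, Ile, Met, Trp, Lys, Thr, Val, Leu, Phe, Arg and POS. The order was set by these means, so neighbours in it are described with no test. The ranges of all 11 pairs of neighbours overlapped, and the widest step was that of 0.666 FPKM from Arg to POS. POS was set against each single-EAA medium too, a comparison chosen after the levels were seen, and all 10 comparisons share the 6 POS libraries. CSN3 was lower in POS in all 10 by two-sided exact permutation tests, with adjusted p from 0.011 (Ile and Met) to 0.041 (Arg), and 3.87% of the genes tested were lower in POS in all 10 by the same rule. Without Leu_1, Arg_4 and POS_4 it was lower in 9 of the 10, Thr being the exception (exact permutation p = 0.052, adjusted 0.052). With all libraries the ranges of Ile and Met did not overlap that of POS, and without those 3 the ranges of 4 media did not, whereas 10 of all 66 libraries outside POS were at or below its highest value. No share of all genes is given for these ranges or for the 9 of 10, so they are not read as particular to CSN3. A mean in POS below that of the 11 other media was found for 14.7% of the genes tested.

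The 3 libraries without a CSN3 read, Leu_1, Arg_4 and POS_4, were also the 3 with the fewest genes above 0, at 10495, 11838 and 13537 against 15211 or more in the other 69. The paper lists lower mapping efficiencies for Leu_1 and Arg_4 than for any other library. Its value for POS_4 lies within the range of the other libraries. A count of 3 reads would have been 0.301 FPKM in Leu_1, 0.264 in Arg_4 and 0.251 in POS_4. Over the other 69 libraries CSN3 had a median of 17 reads, and of the 1356 genes with a median of 10 to 25 reads there, 75.6% were at 0 in Leu_1, 64.5% in Arg_4 and 40.3% in POS_4, compared with at most 9.74% in any other library. Many of these genes were at 0 in each of the 3 libraries, as CSN3 was, though most were above 0 in POS_4. Their 10 to 25 reads are medians over all 69 other libraries, and CSN3 itself had fewer reads in POS. Without POS_4, POS had a mean of 0.432 ± 0.246 FPKM (SD, n = 5), and with Leu_1, Arg_4, POS_4 and NEG_2 all left out the log2 fold change of POS against NEG was −0.90 (adjusted p = 0.0084 by limma). Leaving out the library without reads raised the mean of Leu from 1.18 to 1.41 ± 0.467 FPKM and that of Arg from 1.03 to 1.23 ± 0.408 FPKM (SD, n = 5 each). The other 5 POS libraries had 17034 to 17743 genes above 0 and 2 to 10 reads of CSN3.

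**Figure D4:**
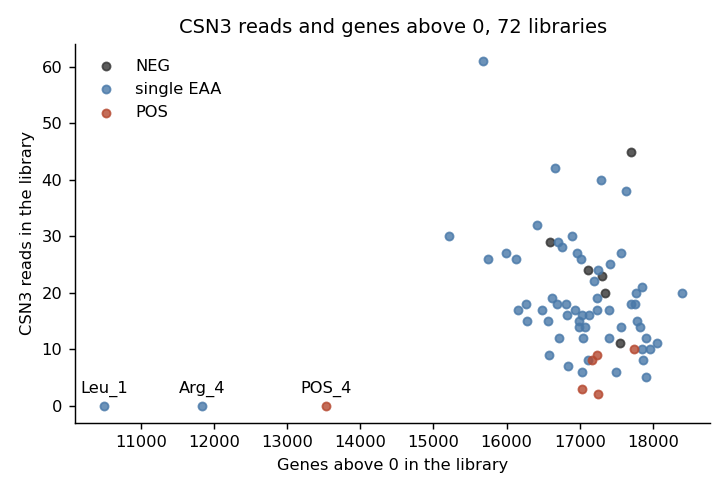
Recovered reads of CSN3 (y axis) against the number of genes above 0 (x axis) in each of the 72 libraries. Leu_1, Arg_4 and POS_4 lie at 0 reads with the fewest genes, while the other 5 POS libraries have 17034 or more genes and 10 reads or fewer.

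The variance of κ-casein FPKM between replicates was 2.58 times (Trp) to 13.5 times (His) that of read counting alone, with a median of 4.50 over the 12 media, given as a description with no test. In His, 61 reads in His_4 stood beside 7 in His_2, and in Thr, 38 reads in Thr_3 stood beside 5 in Thr_4. Without the libraries at 0, the ratio fell from 5.33 to 2.02 in Arg (without Arg_4), from 5.57 to 2.12 in Leu (without Leu_1) and from 3.13 to 2.06 in POS (without POS_4). The ratio takes each read as an independent molecule, which was not the case where PCR copies were sequenced.

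Among the 16706 other genes above 0 in at least 36 libraries, the highest Spearman coefficients with CSN3 over the 72 libraries were 0.63 for ENSBTAG00000017676 and 0.60 for ENSBTAG00000002058, and 0.59 for the third gene. The points share their libraries and their media, and the coefficients are given as a description. ENSBTAG00000017676 had a mean of 74.9 ± 16 FPKM in NEG and 32.3 ± 6.90 in POS, ENSBTAG00000002058 had 26.6 ± 3.10 in NEG and 14.6 ± 1.57 in POS, and the third gene had 888 ± 167 in NEG and 690 ± 91.9 in POS (SD, n = 6 each). The genes were chosen over libraries that include POS, so nothing is read from their lower level there. Without the 6 POS libraries the coefficients were 0.53, 0.50 and 0.56 in the same order. None of the other 5 milk protein genes had enough libraries above 0 to be compared. The files do not pair these identifiers with gene names.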

How the data were processed

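The authors trimmed reads with Trimmomatic, mapped them with HISAT2 (2.0.5) and assembled them with StringTie (1.3.3b). The submitters' processing notes also name featureCounts (1.5.0-p3) and DESeq2 (1.20.0), whereas the paper names htseq-count, cufflinks and DESeq. Labels and paper give different library kits. The values the authors deposited are FPKM of 29550 genes in 72 libraries. The library factor in them was proportional to median-of-ratios size factors.

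Reads were recovered as the whole multiples of the value of 1 read, which held within 0.0005 of a read for 100.0% of the nonzero values. The length of each gene was the shortest that gave whole reads, so this share is partly built in. For genes with few nonzero values, LALBA among them, the counts are the lowest that the values allow. Recovery and the fits were tested on simulated data. limma (3.58.1, R 4.3.3) with a trended prior was run on log2(FPKM + 1) for the 20576 genes above 0 in at least 6 libraries, with 6 libraries of a treatment against 6 of NEG. A call had a Benjamini-Hochberg adjusted p under 0.05, because the 2-fold limit of the study cannot be reached on this scale by a gene under 1 FPKM. Exact permutation tests (scipy 1.17.1) used all 924 splits. The alternatives were another pseudocount, other filters and scalings, voom, sample weights, the replicate number as a block, a joint fit, the limits of the study and libraries left out. The milk protein genes were always named, and beside them the genes most like CSN3 by Spearman coefficient, of which the identifiers of the first 2 are printed. Members, lists and the 4 libraries set aside were chosen with earlier results of these data known.

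The names of the 6 genes came with their identifiers, and 0 identifiers of the deposited table matched the 37063 genes of the RefSeq list. Planned lists (prolactin and STAT5 signalling, other milk genes, mTOR signalling, amino acid response, EAA transporters) and markers of epithelial cells, fibroblasts and immune cells could not be matched and were not run, so the labelled cell type was not checked by markers.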

Additional observations from a re-analysis of the deposited data

Results flagged for a closer look

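LALBA FPKM was highest in NEG_3 (0.056) among the NEG libraries, in His_6 (0.025) among His, in Met_6 (0.027) among Met and in Trp_4 (0.052) among Trp, with the other 5 replicates of each medium at 0. Each value is 1 or 2 reads, and Dixon's criterion is met by any single read beside 5 zeros, so it adds nothing to these counts. CSN3 was tested by Dixon's criterion in the 12 media and no library met it, where chance flags about 1 in 20 groups.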

How the results depend on the processing

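The call of CSN3 as lower in POS than in NEG was kept under all 10 alternatives and with each of the 12 libraries left out in turn, with log2 fold changes of −1.17 to −0.94 and adjusted p of 0.0017 to 0.010 by limma when 1 library was left out. Of 20576 genes, the main fit called 4097 in POS against NEG, the limits of the study 1260 and sample weights 7830. The joint fit called 6366, and the fit without the 4 libraries 6254. Calls of CSN3 kept under settings that called more genes weigh less. No such count is given for the fits with 1 library left out. Over the 10 alternatives the adjusted p was 0.00085 to 0.016, and no single-EAA medium was called under any of them (lowest adjusted p 0.10), so the count of members called was 1 throughout. The replicate number as a block gave 1 call as well, with an adjusted p of 0.016 for POS. Same-numbered libraries of a medium and NEG had correlations of their deviations from −0.245 to 0.229 over the 11 comparisons, and from −0.060 to 0.202 in POS. They were positive in all 6 pairs for Trp (0.063 to 0.186, 3 of 6 libraries correlating best with their own number), and 4 of 6 did so for Thr, but in no comparison was every pair above 0.1, so the numbers were not taken as pairs. The exact permutation tests gave 1 call against NEG, also without the 3 libraries that held no CSN3 read, but 0 calls with the 4 libraries left out, where POS had the smallest p that 5 libraries against 5 can give (exact permutation p = 0.0079, adjusted 0.087), and limma still called POS there. LALBA had 4 libraries with at least 1 read and 0 with at least 3, and the F test gave 1.14 (adjusted p = 0.43) without POS. The sign of the smallest differences was not fixed. Ile against NEG was 0.0038 with scaling by total reads and 0.016 without the 4 libraries, and it ranged from −0.17 to 0.063 with 1 library left out, as His did from −0.097 to 0.29. Leu and Arg were −0.15 and −0.26 without the 4 libraries. Scaling by total reads also turned the balance of all genes called in POS against NEG, from 2373 lower and 1724 higher to 1827 lower and 2445 higher. Depth limits all of these values, since CSN3 had 0 to 61 reads per library.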
